A study of Arabidopsis thaliana with 16 samples.

Results

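The 10 *Arabidopsis thaliana* genes described here encode the enzymes that close the path from serine and sulfide to cysteine and then to glutathione. They were chosen by locus: the serine acetyltransferases *SERAT1;1* (AT5G56760), *SERAT2;1* (AT1G55920), *SERAT2;2* (AT3G13110), *SERAT3;1* (AT2G17640) and *SERAT3;2* (AT4G35640), the O-acetylserine (thiol) lyases *OAS-TL A* (AT4G14880), *OAS-TL B* (AT2G43750) and *OAS-TL C* (AT3G59760), and the glutathione synthesis genes *GSH1* (AT4G23100) and *GSH2* (AT5G27380). All 10 were found among the 27827 genes for which 16 AraGene-1_0-st arrays (Affymetrix) gave a leaf signal. The arrays came from 4 groups of Col-0 plants with 4 biological replicates each. These were the watered wild type (the control), watered amiNaa10, watered plants labelled amiNaa15, and the wild type deprived of water for 10 days. The labels give 6 weeks on soil and short days (8 h light, 16 h dark) for every group. The methods of the study give watered plants the same total time on soil as drought plants, the 10 days without water included. For the watered groups this is longer than the 6 weeks of the labels. The amiNaa10 and amiNaa15 plants carry an artificial microRNA under the CaMV 35S promoter, which is active in most tissues, against the catalytic subunit *NAA10* or the auxiliary subunit *NAA15* of the N-terminal acetyltransferase NatA, and the transcriptome of a single line of each was measured. The comparisons ask how leaf transcripts respond to loss of NatA and to drought.

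Serine acetyltransferase transfers the acetyl group of acetyl-CoA to serine, and O-acetylserine (thiol) lyase then exchanges this group for sulfide, which yields cysteine. Both enzymes bind each other in the cysteine synthase complex, in which the acetyltransferase is active and the lyase is not, and each is present in the cytosol, the plastids and the mitochondria. In *Arabidopsis* leaves the mitochondrial SERAT2;2 provides most of the acetyltransferase activity and the cytosolic OAS-TL A most of the lyase activity. Glutamate-cysteine ligase, encoded by *GSH1*, is the rate-limiting step of glutathione synthesis and lies in the plastids, and glutathione synthetase, encoded by *GSH2*, adds glycine in plastids and cytosol.

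The deposited values are log2 signals, background corrected and quantile normalized by the authors, so that 1 unit is a doubling and a shift common to all genes is no longer visible. The targeted genes were examined first. *NAA10* lay between 6.58 and 6.88 in the control and between 4.92 and 5.28 in amiNaa10 (log2 change -1.58, limma adjusted p = 0.0137). In amiNaa15 replicates 3 and 4, *NAA15* was at 7.97 and 7.80, below the 9.0 to 9.20 of the control, and *NAA10* was at 6.89 and 6.86. In amiNaa15 replicates 1 and 2, *NAA15* was at 9.68 and 9.54 and *NAA10* at 5.16 and 5.06. These 2 arrays go against their label. The group is therefore called the amiNaa15-labelled arrays. Its counts of called enzyme genes, and some of its changes, are also given without this pair. Its other results include the pair. The 5 leaf markers (*RBCS1A*, *RCA*, *CA1*, *LHCB2.1* and *GOX1*) were measured between 5.71 and 13.39 on all arrays, whereas the 4 root, 2 seed and 2 flower markers stayed at or below 4.39, 5.21 and 3.28. *CA1* fell in drought by 1.67 log2 units (limma adjusted p = 0.000234) and was the only one of the 5 leaf markers called. The log2 of the summed leaf marker signal was 14.35 to 14.48 in the control and 13.81 to 14.16 in drought, and 14.35 to 14.44 over both knock-down groups. This sum rests mainly on the strongest markers, and *RBCS1A* was at 13.39 on every watered array. The weaker *LHCB2.1* had means of 7.05 in the control, 6.44 in drought, 6.63 in amiNaa10 and 6.38 on the amiNaa15-labelled arrays. The median log2 change of the 5 markers was -0.16, -0.00 and -0.08 in these 3 groups. The part of the leaf markers in the results was not tested.

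Genes were tested with limma over all 27827 genes, with one mean per group, and were called where the Benjamini-Hochberg adjusted p was below 0.05 and the change exceeded 1.5-fold (0.58 log2 units). In drought, 3 of the 10 enzyme genes were called, and these were the 3 lyases *OAS-TL A*, *OAS-TL B* and *OAS-TL C*, all lower. Of all genes, 13.4% were called in drought and 7.15% were called lower. In amiNaa10, 2 of 10 were called, the acetyltransferases *SERAT1;1* and *SERAT2;2*, both lower, where 5.37% of all genes were called and 2.92% lower. Among the amiNaa15-labelled arrays only *SERAT2;2* was called, also lower, where 4.67% of all genes were called and 2.58% lower. None of the 10 was called higher, beside 6.27%, 2.45% and 2.09% of all genes in the same order of comparisons. By the adjusted p alone, with no minimum of fold change, 5 of 10 passed in drought (24.7% of all genes), 3 in amiNaa10 (8.04%) and 1 on the amiNaa15-labelled arrays (7.54%). Counts of 1 to 5 among 10 genes are small. The signals did not overlap with the control, and lay lower, for 4 of 10 genes in drought (10.3% of all genes), 4 in amiNaa10 (7.63%) and 2 on the amiNaa15-labelled arrays (7.07%). The median log2 change of the 10 genes was -0.44 in drought, -0.35 in amiNaa10 and -0.17 on the amiNaa15-labelled arrays, beside 0.03, 0.02 and 0.01 for all genes. These 3 comparisons use the same 4 control arrays. In whole leaves, fewer cells of a type and less RNA per cell cannot be told apart.

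**Figure D1:**
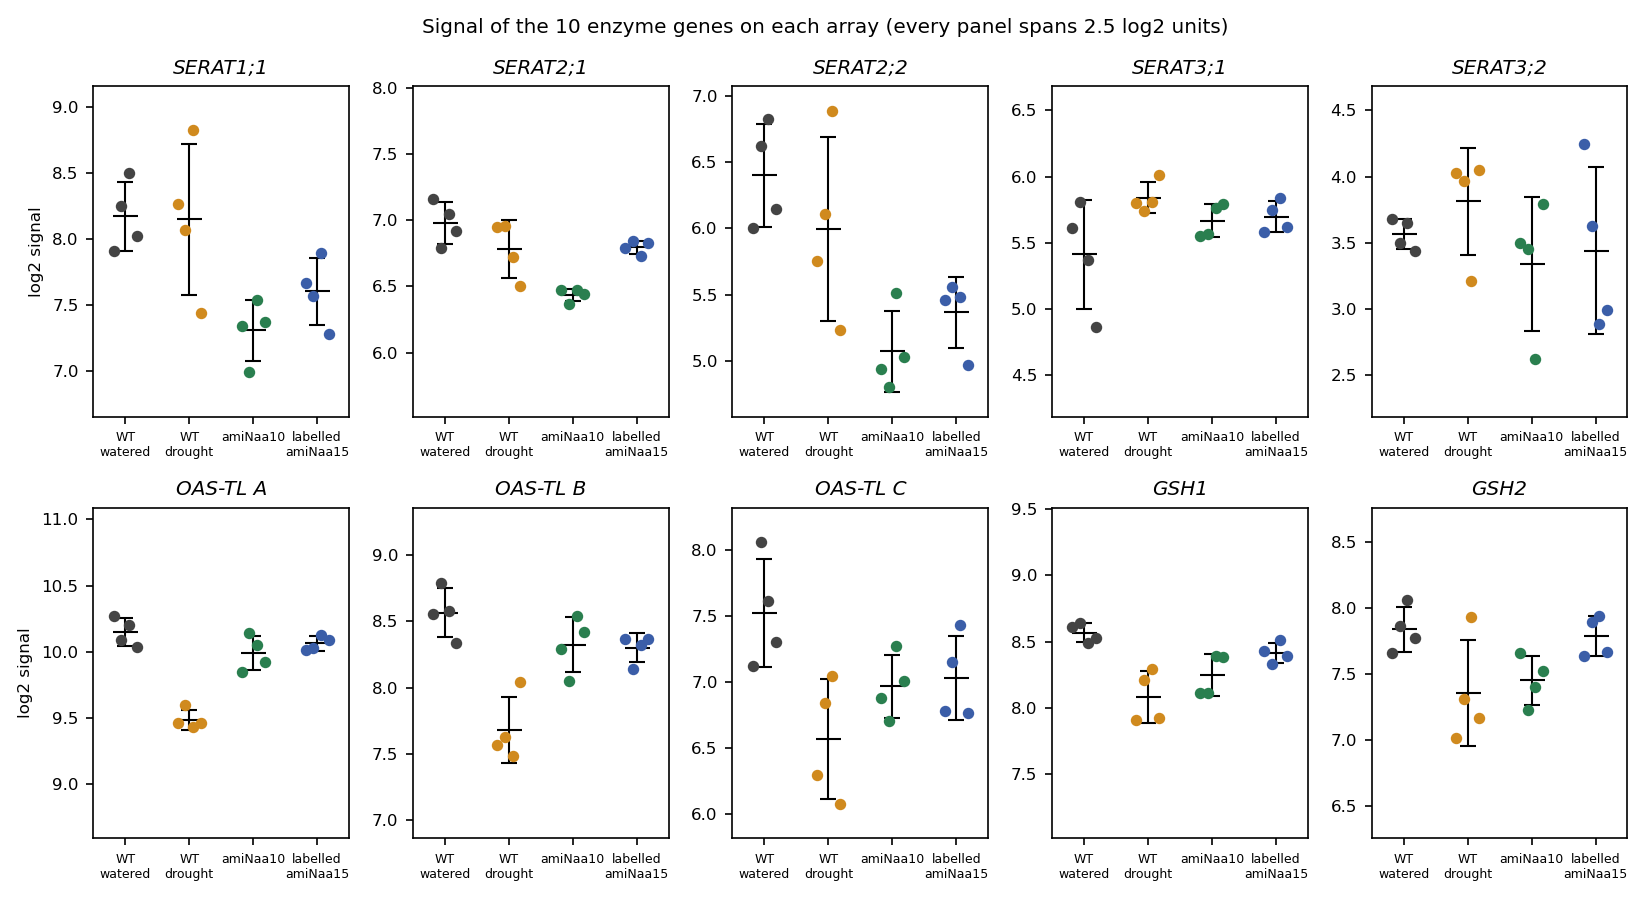
Log2 signal (vertical axis, 2.5 units in every panel) of the 10 enzyme genes on each of the 16 arrays. Points are arrays in the order of their replicate numbers and black bars give mean ± SD of the 4 arrays of a group. In drought the 3 *OAS-TL* panels and *GSH1* lie below the control without overlap, and in amiNaa10 *GSH1* and the mitochondrial, the plastid and the first cytosolic acetyltransferase do so.

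*SERAT2;2*, the mitochondrial acetyltransferase, had the largest change of the 10 genes in each knock-down group. Its signals were 6.00, 6.62, 6.83 and 6.15 on control replicates 1 to 4 and 4.94, 4.80, 5.51 and 5.03 in amiNaa10. They were 5.46, 5.56, 5.48 and 4.97 on the amiNaa15-labelled arrays. Every knock-down array thus lay below the lowest control array. The log2 change was -1.33 in amiNaa10 (standard error 0.29, 2.51-fold lower, limma adjusted p = 0.0141) and -1.03 on the amiNaa15-labelled arrays (standard error 0.29, 2.04-fold lower, limma adjusted p = 0.0388). With the doubted replicates 1 and 2 left out, the change on the latter was -1.17 and was not called (limma adjusted p = 0.185), and without replicates 3 and 4 it was -0.89 (limma adjusted p = 0.139). The call in amiNaa10 was lost without amiNaa10 replicate 2 (limma adjusted p = 0.0528) and kept without any other single array. The call on the amiNaa15-labelled arrays was kept in 10 of 16 such fits. It was lost without replicates 1, 2 or 4 of that label, control replicates 2 or 3, or amiNaa10 replicate 1 (highest limma adjusted p 0.108).

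In drought the mitochondrial acetyltransferase was spread over 5.75, 6.11, 6.89 and 5.23 on replicates 1 to 4. Drought replicate 3 lay above every control array and drought replicates 1 and 4 below every control array, so that the mean of 6.00 ± 0.70 (SD, n = 4) overlapped the control mean of 6.40 ± 0.39. The log2 change was -0.40, with a 95% interval of -1.01 to 0.20 (limma adjusted p = 0.35).

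*SERAT1;1*, a cytosolic acetyltransferase, also had its lowest signals in the knock-down groups apart from 1 drought array. Its signals were 7.91, 8.25, 8.50 and 8.02 in the control, 7.34, 6.99, 7.54 and 7.37 in amiNaa10, and 7.67, 7.57, 7.89 and 7.28 on the amiNaa15-labelled arrays. Both knock-down groups lay wholly below the control, on the amiNaa15-labelled arrays by as little as 7.89 against 7.91. It fell by 0.86 log2 units in amiNaa10 (standard error 0.23, 1.81-fold, limma adjusted p = 0.0342). This call was kept in 10 of 16 fits with 1 array left out, and lost without amiNaa10 replicates 1, 2 or 4 or control replicates 1, 2 or 3 (highest limma adjusted p 0.116). For the amiNaa15-labelled arrays the log2 change of -0.57 was not called by limma (standard error 0.23, adjusted p = 0.145), nor was the -0.59 without the doubted arrays (adjusted p = 0.447). The drought signals of 8.26, 8.07, 8.82 and 7.44 lay on both sides of the control (log2 change -0.02, 95% interval -0.51 to 0.47).

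*SERAT2;1*, the plastid acetyltransferase, varied little between replicates. It was at 7.16, 6.79, 7.05 and 6.92 in the control and at 6.47, 6.37, 6.47 and 6.44 in amiNaa10, again without overlap. The log2 change of -0.54 (standard error 0.11) had an adjusted p of 0.0117 by limma, but at 1.45-fold it stayed below the fold change required for a call. Without control replicate 2 it was -0.61 and was called (limma adjusted p = 0.0114), while the call of *SERAT1;1* was lost. Values on the amiNaa15-labelled arrays (6.79, 6.84, 6.73 and 6.83) and in drought (6.95, 6.96, 6.72 and 6.50) overlapped the control, with log2 changes of -0.18 and -0.20 (limma adjusted p = 0.344 and 0.221).

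Neither of the remaining cytosolic acetyltransferases was called in any comparison. *SERAT3;1* was the only gene of the 10 with a positive log2 change in all 3 comparisons with the control. Its control signals of 5.61, 5.81, 5.37 and 4.86 spread more widely than the 5.74 to 6.01 in drought, the 5.55 to 5.79 in amiNaa10 and the 5.58 to 5.84 on the amiNaa15-labelled arrays. The log2 change in drought was 0.43 (95% interval 0.09 to 0.77, limma adjusted p = 0.0612), and 0.24 without control replicate 4. *SERAT3;2* had the lowest signals. Its control mean of 3.57 ± 0.12 (SD, n = 4) lay above that of 29.6% of all genes. It ranged from 3.21 to 4.05 in drought, from 2.62 to 3.79 in amiNaa10 and from 2.89 to 4.25 on the amiNaa15-labelled arrays, around the 3.44 to 3.68 of the control. The intervals of its log2 change (-0.36 to 0.86, -0.84 to 0.39 and -0.74 to 0.49, in this order) each reached past 1.5-fold in 1 direction. On the amiNaa15-labelled arrays the log2 change was -0.63 without the doubted replicates 1 and 2 (limma adjusted p = 0.37). Without replicates 3 and 4 it was 0.37 (limma adjusted p = 0.487).

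The lyases were called in drought and in neither knock-down group. *OAS-TL A*, the cytosolic form, was measured at 10.27, 10.09, 10.20 and 10.04 in the control and at 9.46, 9.60, 9.43 and 9.46 in drought. The drought arrays differed little from each other and lay below all other 12 arrays. The gene fell by 0.66 log2 units (standard error 0.09, 1.58-fold, limma adjusted p = 0.000155), and was called in 16 of 16 fits with 1 array left out. In amiNaa10 the signals were 9.85, 10.14, 10.05 and 9.92, and on the amiNaa15-labelled arrays 10.01, 10.03, 10.13 and 10.09. Both overlapped the control. Their log2 changes of -0.16 (95% interval -0.35 to 0.04) and -0.08 (-0.28 to 0.11) had intervals that did not reach a 1.5-fold fall.

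*OAS-TL B*, the plastid form, was at 8.56, 8.79, 8.58 and 8.34 in the control and at 7.57, 7.63, 7.48 and 8.04 in drought, where replicate 4 was the highest array but still below the control. It fell by 0.89 log2 units (standard error 0.14, 1.85-fold, limma adjusted p = 0.000359). *OAS-TL C*, the mitochondrial form, was at 7.12, 8.06, 7.61 and 7.30 in the control and at 6.30, 6.84, 7.05 and 6.08 in drought. The highest drought array lay just under the lowest control array. It fell by 0.95 log2 units (standard error 0.24, 1.94-fold, limma adjusted p = 0.00749). Both genes were called in 16 of 16 fits with 1 array left out, and with the block for replicate numbers all 3 lyases were called as well.

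In the knock-down groups neither *OAS-TL B* nor *OAS-TL C* was called. *OAS-TL B* lay at 8.29, 8.05, 8.54 and 8.42 in amiNaa10 and at 8.37, 8.14, 8.32 and 8.37 on the amiNaa15-labelled arrays, with log2 changes of -0.24 and -0.27 and lower interval limits of -0.54 and -0.57. *OAS-TL C* lay at 6.88, 6.71, 7.27 and 7.01 in amiNaa10 and at 6.78, 7.15, 7.43 and 6.77 on the amiNaa15-labelled arrays. Its log2 changes of -0.55 and -0.49 came with wide intervals (-1.05 to -0.06 and -0.99 to 0.01) and adjusted p of 0.158 and 0.218 by limma. For this gene a fall in the knock-downs as large as that in drought was within the interval, whereas for *OAS-TL A* it was not.

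**Figure D2:**
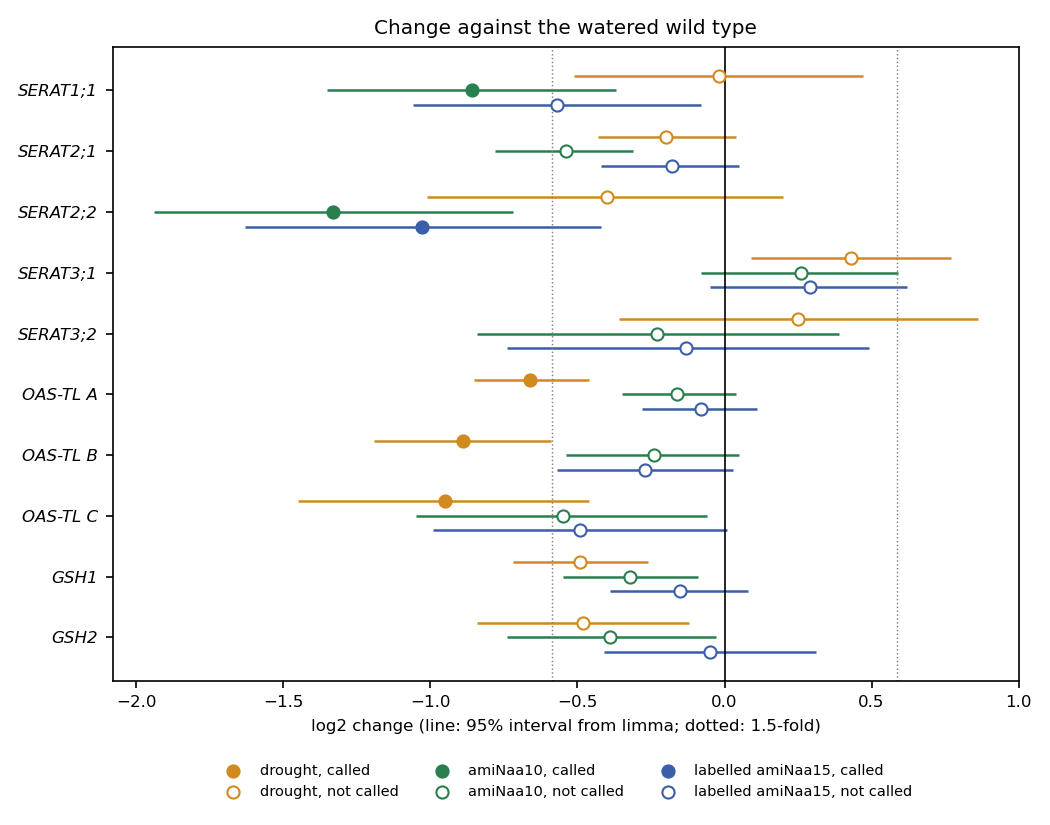
Log2 change against the watered wild type (horizontal axis) for the 10 enzyme genes in drought, in amiNaa10 and on the amiNaa15-labelled arrays, with 95% intervals from limma. Filled points are called genes and dotted lines mark 1.5-fold. The filled drought points are the 3 *OAS-TL* genes (-0.66, -0.89 and -0.95), and the filled knock-down points are the cytosolic acetyltransferase in amiNaa10 (-0.86) and the mitochondrial one in both groups (-1.33 and -1.03).

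The glutathione synthesis genes lay lower in drought by less than the fold change required for a call. *GSH1* was at 8.61, 8.64, 8.49 and 8.53 in the control and at 7.91, 8.21, 8.29 and 7.92 in drought. No drought array reached the control, and the log2 change was -0.49 (standard error 0.11, 1.4-fold), with an adjusted p of 0.00416 by limma. In amiNaa10 *GSH1* was at 8.11, 8.11, 8.39 and 8.38, also below every control array, and the log2 change was -0.32 (limma adjusted p = 0.0799). It was at 8.43, 8.33, 8.51 and 8.39 on the amiNaa15-labelled arrays (-0.15, 95% interval -0.39 to 0.08).

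*GSH2* was at 7.66, 7.86, 8.06 and 7.77 in the control and at 7.02, 7.31, 7.93 and 7.17 in drought. Drought replicate 3 lay within the control and the other drought arrays below it. With -0.48 (standard error 0.17, limma adjusted p = 0.0485) the log2 change was below 1.5-fold. Without drought replicate 3 it was -0.67 and was called (limma adjusted p = 0.00268). In amiNaa10 *GSH2* was at 7.66, 7.23, 7.40 and 7.52 (log2 change -0.39, limma adjusted p = 0.171). The amiNaa15-labelled arrays, at 7.64, 7.89, 7.94 and 7.67, lay within or near the control (-0.05, 95% interval -0.41 to 0.31).

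Some arrays were at one end of their group for most of these genes. Of the 10 genes, amiNaa10 replicate 2 was the lowest of its group for 7 and the highest for 1, and amiNaa10 replicate 3 the highest for 6 and the lowest for 1. Replicate 3 of the amiNaa15-labelled arrays was the highest for 6 and the lowest for 2. Drought replicate 3 was the highest for 5 and the lowest for 3. Control replicate 3 was the highest for 3 and the lowest for 1. Several of these arrays thus carry the number 3, and *SERAT1;1* was highest on replicate 3 in every group. The leaf marker *CA1* was lowest on drought replicate 3 (9.71, against 10.91 to 11.33 on the other drought arrays). The part of these arrays in the results was not tested beyond leaving each out and the block for replicate numbers.

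Whether the knock-down groups differ from drought was tested directly between the groups, in the same fit over all 16 arrays, whose spread the control arrays share. amiNaa10 differed from drought in 3 of the 10 genes, where 17.3% of all genes were called, 9.11% higher and 8.17% lower in amiNaa10. By the adjusted p alone 5 of 10 passed, where 28.4% of all genes did. *SERAT1;1* and the mitochondrial acetyltransferase were lower in amiNaa10, with log2 differences of -0.84 (95% interval -1.33 to -0.35, limma adjusted p = 0.0123) and -0.93 (-1.53 to -0.32, limma adjusted p = 0.0227). In both genes 1 drought array, replicate 4, reached into the amiNaa10 range. *OAS-TL B* was higher in amiNaa10 by 0.64 (0.35 to 0.94, limma adjusted p = 0.00258) without overlap. The call of *SERAT1;1* was kept in 16 of 16 fits with 1 array left out and that of *OAS-TL B* in 14 of 16. That of the mitochondrial acetyltransferase was kept in 12 of 16, and was lost without amiNaa10 replicates 1 or 2 or drought replicates 2 or 3 (highest limma adjusted p 0.0723). It was also lost when only the arrays of amiNaa10 and drought were fitted (limma adjusted p = 0.0564), where *SERAT1;1* and *OAS-TL B* were called. *OAS-TL A* was also higher in amiNaa10 on every array, by 0.50 (limma adjusted p = 0.000731), below 1.5-fold. Without overlap, 2 of the 10 genes lay higher in amiNaa10 (*OAS-TL A* and *OAS-TL B*) and 1 lower (the plastid acetyltransferase), beside 13.3% and 14.6% of all genes.

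The amiNaa15-labelled arrays differed from drought in *OAS-TL B* alone (0.62 higher, 95% interval 0.32 to 0.91, limma adjusted p = 0.00466), where 13.7% of all genes were called, 7.14% higher and 6.57% lower. By the adjusted p alone 3 of 10 passed (22.7% of all genes), and by an unadjusted p with the fold minimum 2 of 10 (15.3%). *OAS-TL A*, *OAS-TL B* and *GSH1* lay above drought without overlap, 3 of 10 genes beside 10.9% of all. The call of *OAS-TL B* was lost without drought replicate 1 or 3. Without the doubted replicates 1 and 2 the difference was 0.66 and *OAS-TL A* was called in addition, at 0.62 (limma adjusted p = 0.0283 and 0.00509). The log2 differences of *SERAT1;1* (-0.55) and of the mitochondrial acetyltransferase (-0.63) were not called (limma adjusted p = 0.106 and 0.135), although both were called without drought replicate 4. *OAS-TL C* lay higher than drought in both knock-down groups by 0.40 and 0.46, with intervals that included 0. amiNaa10 and the amiNaa15-labelled arrays did not differ in any of the 10 genes by limma's adjusted p, where 0% of all genes were called. At an unadjusted p below 0.05, 1 of the 10 genes was found, the plastid acetyltransferase, with a log2 difference of -0.36 (95% interval -0.59 to -0.12, limma adjusted p = 0.572). Its amiNaa10 arrays lay lower without overlap, as did those of 2.54% of all genes. With the fold minimum 0 of 10 remained, beside 1.29% of all genes. The share of all genes at the unadjusted p alone is not given here, so the count of 1 cannot be judged against it. For 5 of the 10 genes the interval of the difference between the knock-down groups stayed within 1.5-fold. For the other 5 it did not. The doubted replicates 1 and 2 had *NAA10* and *NAA15* signals within the amiNaa10 range (4.92 to 5.28 and 9.46 to 9.87). This comparison therefore cannot show whether the 2 knock-downs are alike. Without these replicates, 0 of the 10 genes and 7 of all 27827 genes were called.

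**Figure D3:**
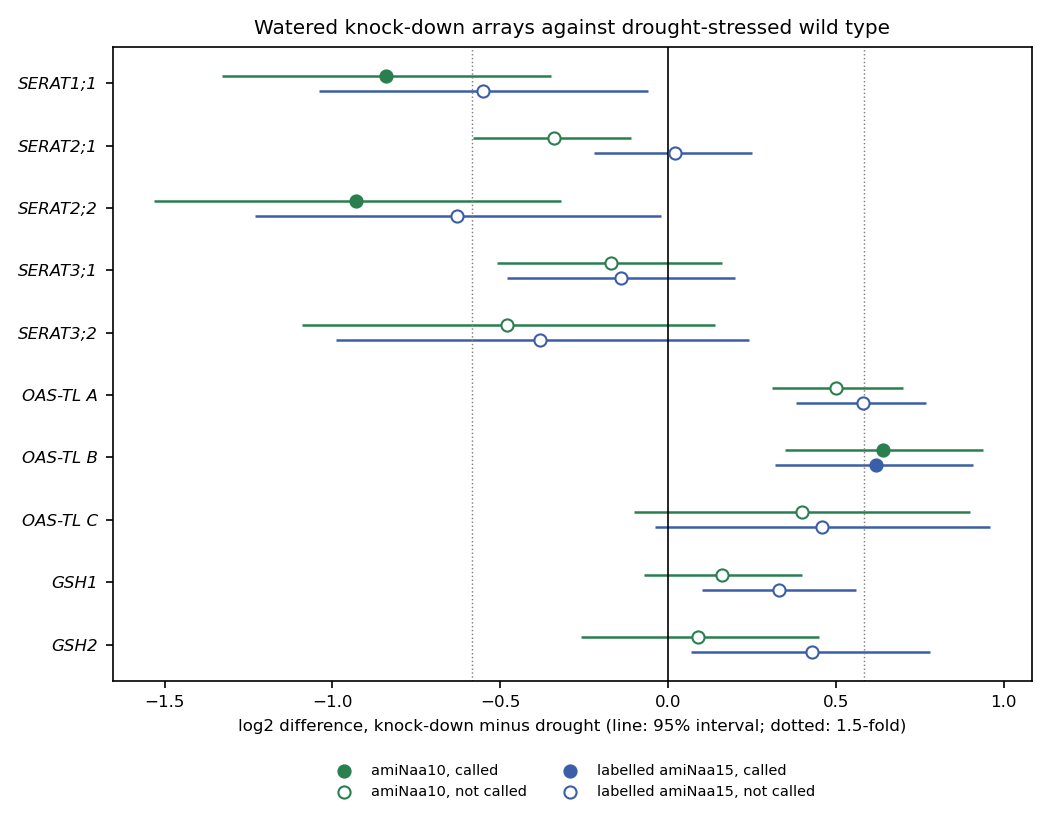
Log2 difference between each watered knock-down group and the drought-stressed wild type (horizontal axis, knock-down minus drought) for the 10 enzyme genes, with 95% intervals. Filled points are called genes. In amiNaa10 the filled acetyltransferase points lie to the left of 0 (-0.84 and -0.93), and *OAS-TL B* lies to the right in both groups (0.64 and 0.62).

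The steps before and after cysteine were followed in 34 further genes on 4 lists. The median log2 change in drought, in amiNaa10 and on the amiNaa15-labelled arrays was -0.73, -0.35 and -0.59 for sulfate reduction, and -0.05, -0.09 and -0.04 for other OAS-TL-like enzymes. It was -0.47, -0.02 and -0.22 for the methionine branch, and -0.15, -0.04 and -0.11 for glutathione use and breakdown. For all genes it was 0.03, 0.02 and 0.01. Of 8 genes of sulfate reduction, which supplies the sulfide, 5 were called lower in drought, 2 in amiNaa10 and 3 on the amiNaa15-labelled arrays, beside 7.15%, 2.92% and 2.58% of all genes. None was called higher. *ATPS4* was the only 1 of the 8 that lay higher in drought (0.55, limma adjusted p = 0.0328), by less than 1.5-fold. It was called higher without control replicates 3 or 4 or drought replicate 4 (0.65, 0.60 and 0.66). In amiNaa10 it was called lower than in drought (log2 difference -0.84, limma adjusted p = 0.00201). The largest drought changes were those of the adenosine 5'-phosphosulfate reductases *APR2* (-1.06), *APR1* (-0.88) and *APR3* (-0.81) and of the ATP sulfurylase *ATPS3* (-0.93). In amiNaa10 *ATPS3* (-1.02) and *APR1* (-0.97) were called, and on the amiNaa15-labelled arrays *APR1* (-1.0), *APR3* (-0.99) and *APR2* (-0.85). *ATPS3* was close to a call on the amiNaa15-labelled arrays (-0.91, limma adjusted p = 0.0519). It was called lower there under 10 of 29 alternatives, among them the unadjusted p, the replicate block and cyclic loess. *APR3* in amiNaa10 was at -0.67 (limma adjusted p = 0.0714). The drought count was 3 without control replicate 2. The count in amiNaa10 was 0 without amiNaa10 replicates 1 or 2 or control replicates 2 or 3, and 1 without control replicate 1 or with only amiNaa10 and the control fitted. For the amiNaa15-labelled arrays it was 0 without both doubted arrays and 2 without replicates 3 and 4. Of all genes, 108 and 2049 were called in these fits, against 1299 with all arrays. Without the doubted arrays the log2 changes were -1.03 for *APR1*, -0.85 for *APR2* and -1.06 for *APR3* (limma adjusted p = 0.181, 0.0566 and 0.123). With no moderation of the variance, both calls in amiNaa10 (*ATPS3* and *APR1*) were lost. Those in drought and on the amiNaa15-labelled arrays were kept.

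Of 5 other enzymes related to the lyases (*CYSC1*, *DES1*, *CS26*, *CYSD1* and *CYSD2*), none was called against the control by limma, in any of the 3 comparisons. Among them are the mitochondrial cyanoalanine synthase *CYSC1* and the cysteine desulfhydrase *DES1*. Of all genes, 13.4% were called in drought, 5.37% in amiNaa10 and 4.67% on the amiNaa15-labelled arrays. For these 5 enzymes a count of 0 is near those shares. At an unadjusted p below 0.05, 1 was found in drought (*CYSD1*, -0.41), 1 in amiNaa10 (the plastid *CS26*, 0.65, limma adjusted p = 0.0915) and 0 on the amiNaa15-labelled arrays, and without moderation of the variance 0 were called in each. With the replicate block *CS26* was called higher in amiNaa10 (limma adjusted p = 0.0496), so that the count was 1. The log2 change of *CYSC1* was -0.02 in drought, -0.11 in amiNaa10 and -0.05 on the amiNaa15-labelled arrays, with intervals that stayed between -0.37 and 0.25. Of 5 genes of the branch to methionine, *MS2*, a methionine synthase, was called lower in drought (-0.90, limma adjusted p = 0.00229). This count of 1 in 5 is small and stands beside 7.15% of all genes called lower. Neither knock-down group had a call by limma, with 1 and 2 at an unadjusted p below 0.05 and 0 and 0 called without moderation. For both lists the share of all genes at an unadjusted p below 0.05 is not given here. The counts at that threshold cannot be judged against it.

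Of 16 genes that use, move or degrade glutathione, 5 were called in drought, 4 in amiNaa10 and 1 on the amiNaa15-labelled arrays, all lower, beside 7.15%, 2.92% and 2.58% of all genes called lower. A count of 1 in 16 is near that share. The largest changes in drought were those of *GGCT2;1*, a gamma-glutamyl cyclotransferase that degrades glutathione in the cytosol (-1.34), *GGT1*, an apoplastic gamma-glutamyl transpeptidase (-1.03), *PCS1*, a phytochelatin synthase (-0.75), and *CLT2*, a thiol transporter of the plastid envelope (-0.71). The 4 called in amiNaa10 were the cyclotransferase (-1.41), the cytosolic gamma-glutamyl peptidase *GGP1* (-1.36), *CLT3*, a relative of *CLT2* (-0.70), and the vacuolar transpeptidase *GGT4* (-0.66). Only the cyclotransferase was called on the amiNaa15-labelled arrays (-1.38). Its call was lost without the doubted arrays (log2 change -1.31) and also without replicates 3 and 4 (-1.46). *GGT1*, *PCS1* and *CLT2* differed between drought and both knock-down groups, which lay higher by 1.26 and 1.23, by 1.17 and 1.04, and by 0.96 and 0.72 log2 units (largest limma adjusted p 0.000715). The count of 4 in amiNaa10 was 0 without amiNaa10 replicates 1 or 2 or control replicate 3, and 2 without control replicate 4. With no moderation of the variance, only *GGP1* was still called in amiNaa10. The call of the cyclotransferase on the amiNaa15-labelled arrays was then lost as well, whereas the drought calls were kept. The count of 1 on the amiNaa15-labelled arrays was 0 without replicates 2 or 4 of that label or control replicates 1 or 3. It was 2 without replicate 3 of that label or drought replicate 4. The gene added without replicate 3 was *PCS2*, called higher (0.78, limma adjusted p = 0.0213). Without drought replicate 4 the added gene was *GGP1*, called lower (-0.88, limma adjusted p = 0.0484). *PCS2* was also called higher without both replicates 3 and 4 of that label (0.91).

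**Figure D4:**
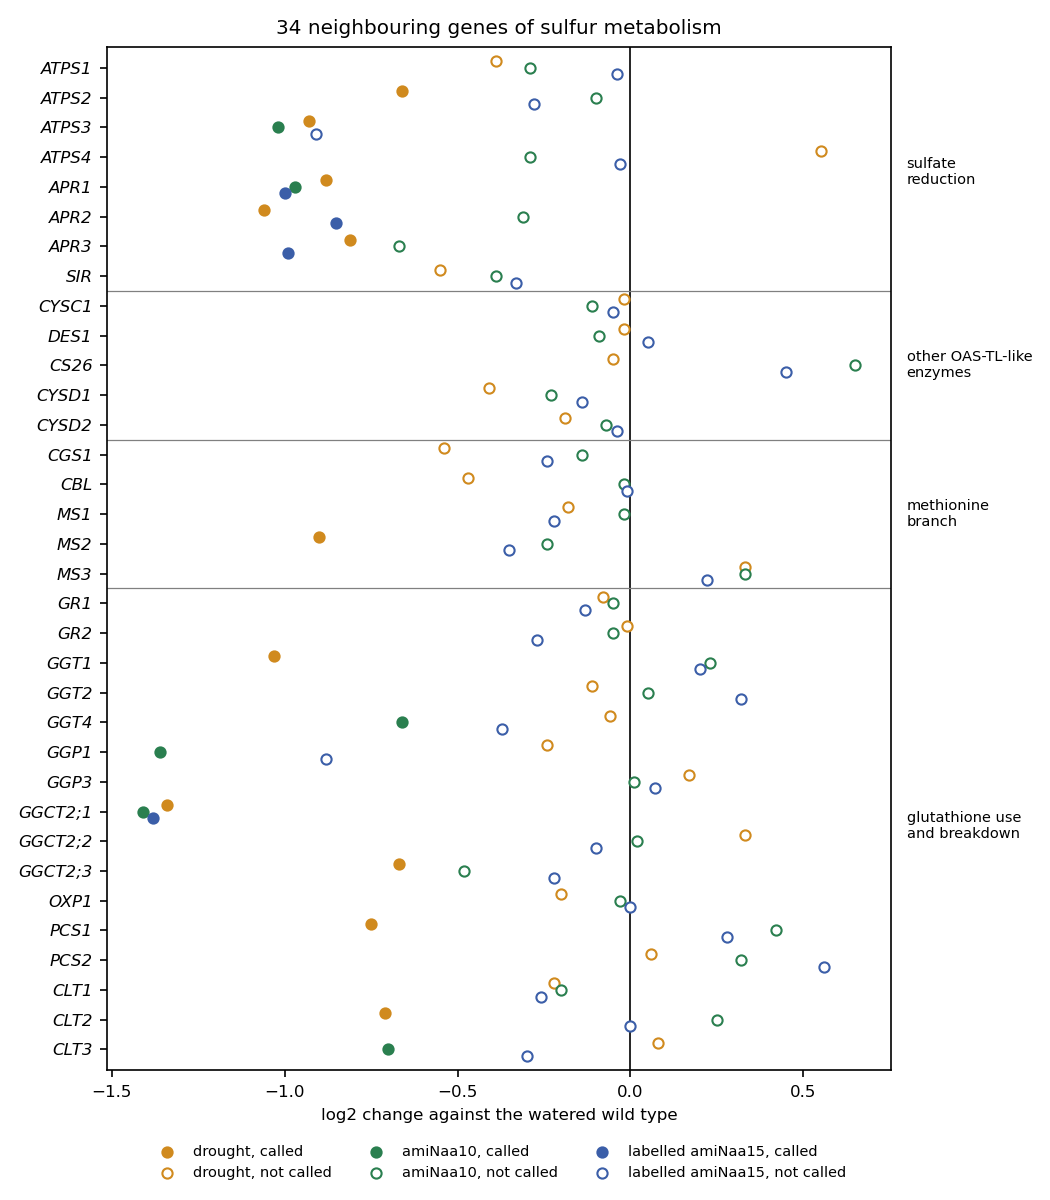
Log2 change against the watered wild type (horizontal axis) of 34 genes of sulfate reduction, of other OAS-TL-like enzymes, of the methionine branch, and of glutathione use and breakdown. Filled points are called genes, and every filled point lies to the left of 0. The cyclotransferase *GGCT2;1* is filled in all 3 comparisons (-1.34, -1.41 and -1.38), and the 5 OAS-TL-like enzymes have no filled point.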

How the data were processed

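Leaf RNA of 16 samples was measured on AraGene-1_0-st arrays of Affymetrix. The authors deposited log2 signals per gene after RMA background correction, quantile normalization and annotation with a custom probe file based on TAIR. The TAIR release is not given in the sources used here, and no coordinates are printed. Once sorted, the 16 arrays hold the same values. Groups and replicate numbers come from the labels, which call the replicates biological. Whether a replicate was 1 plant is not stated. The number of arrays limits the precision.

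From these values, one mean per group was fitted for each of 27827 genes with limma 3.58.1 in R 4.3.3 (12 residual degrees of freedom), and p-values were adjusted within each of 6 comparisons over all genes. In the table, 2 genes were constant within groups and were not called. The fit was tested on simulated data. The named genes are the 10 enzyme genes, the targeted genes, and up to 4 called genes with the largest changes per list and comparison. *CYSC1*, *DES1*, *CS26*, *CYSD1*, *CYSD2*, *ATPS4* and *PCS2* were added after their values were seen. Members and lists were chosen with earlier results of these data known. The alternatives were an unadjusted p, no or a 2-fold minimum, treat, only the groups compared, a block for the replicate number, leaving out the lowest 25% of genes, cyclic loess, no moderation, trend with robust moderation, array weights, each array left out, and pairs of arrays labelled amiNaa15 left out. They were applied to the 4 further lists after the data were seen. Same-numbered arrays did not deviate together (mean correlation 0.04 over 24 pairs). Symbols follow the study and the RefSeq table of TAIR10.1. Protein and promoter sequences were not used here. Figures were made with Python 3.11.15 and matplotlib 3.10.9.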

Additional observations from a re-analysis of the deposited data

Results flagged for a closer look

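Among 40 sets of 4 arrays (10 genes in 4 groups), 2 held an array far from the other 3 by Dixon's test, which chance does for about 1 set in 20. *SERAT2;2* was at 4.97 on the array labelled amiNaa15 replicate 4, and the nearest array of that label was at 5.46. *SERAT3;2* was at 3.21 on drought replicate 3, and the nearest drought array was at 3.97.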

How the results depend on the processing

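No change of direction was found among the 10 enzyme genes in 6 comparisons where a gene was called under either setting. Of 1740 values under alternatives, 45 lost a call and 18 gained one. Only a gene called in the first place can lose a call, and most of the 1740 values belong to genes not called. The 45 are therefore a larger share of the values that could lose a call. With limma's treat, which tests for more than 1.5-fold, 0 enzyme genes were called in every comparison. Of all 27827 genes, treat called 404 in drought, 5 in amiNaa10 and 23 on the amiNaa15-labelled arrays. Against drought it called 1147 in amiNaa10 and 702 on the amiNaa15-labelled arrays. With a 2-fold minimum, 0 were called in drought, 1 in amiNaa10, and 0 in each knock-down group against drought. Of all genes, 1294, 611, 2119 and 1623 were called in the same order. Without a fold minimum, 5 were called in drought, 5 in amiNaa10 against drought and 3 on the amiNaa15-labelled arrays against drought. These stand beside 24.7%, 28.4% and 22.7% of all genes. With no moderation of the variance, 1 was called in amiNaa10 and 0 on the amiNaa15-labelled arrays, beside 944 and 986 of all genes. With an unadjusted p, 2 were called on the amiNaa15-labelled arrays against drought, beside 15.3% of all genes. With the replicate block the count there was also 2 (*SERAT2;2* and *OAS-TL B*), and in no other comparison did the block move the count by over 1.5 times. Over all genes, 6 of 16 arrays correlated best with their own number, where each could match any of 4 numbers. Without the amiNaa15-labelled arrays replicates 1 and 2, 0 were called on that label and 2 against drought. Of all genes 108 and 2662 were called there, against 1299 and 3814 with all arrays. Without replicates 3 and 4 of that label, 0 and 0 were called, beside 2049 and 3980 of all genes. With each array left out in turn, 3 to 4 genes were called in drought, 0 to 2 in amiNaa10, 0 to 1 on the amiNaa15-labelled arrays, 0 between the knock-down groups, 1 to 3 in amiNaa10 against drought, and 0 to 3 on the amiNaa15-labelled arrays against drought. The count in amiNaa10 was 0 without amiNaa10 replicate 2, and 1 without amiNaa10 replicates 1 or 4 or control replicates 1 or 3. Of all genes 556, 775, 1300, 827 and 753 were called in these fits, in this order, against 1494 with all arrays. The count in amiNaa10 against drought was 1 without drought replicate 3, beside 4519 of all genes. That on the amiNaa15-labelled arrays against drought was 0 without drought replicate 1 and 3 without drought replicate 4. Beside these, 3484 and 3979 of all genes were called.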
